A study of Mus musculus with 47 samples.

Results

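Scavenger receptors are surface proteins with which macrophages bind and take up modified lipoproteins, dying cells, bacteria and free haemoglobin. They are a functional group rather than one gene family. Marco, Msr1 and Colec12 form trimers with a collagen-like stem (class A), Cd36 is a class B receptor for fatty acids and oxidised lipoproteins, Stab1 clears matrix fragments and modified lipoproteins, and Cd163 takes up haemoglobin bound to haptoglobin. Cd5l is a secreted protein built from the same SRCR (scavenger receptor cysteine-rich) domains as Cd163 and is made by tissue macrophages. These 7 genes were followed by their gene symbols in all 12 RNA-seq libraries that were analysed, out of 51912 genes in the tables of bone marrow-derived macrophages (BMDMs) and 27567 in the tables of Raw264.7 cells. All 7 had counts in untreated BMDMs. Of the Raw264.7 tables, the one of Zmynd8 KO listed 7 of them, that of D/E-A listed 6, that of K122R listed 5 and that of p65 KO listed 4, and these tables list no gene that is at 0 in both of their libraries.

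The study asked how ZMYND8, a chromatin reader, acts on gene expression in polarized macrophages. BMDMs of C57BL/6 mice were grown for 5 days with 20 ng/ml M-CSF. WT mice were Zmynd8 fl/fl littermates without Cre, and Zmynd8 cKO mice carried Lyz2-Cre, which deletes floxed exons 6 and 7 in myeloid cells, so both genotypes carry the floxed allele. Cells were untreated (NT) or received, over 6 h, LPS (100 ng/ml), which comes from the outer membrane of bacteria, or the cytokine IL-4 (20 ng/ml). Material of 3 biological replicates was pooled before each BMDM library was made. Raw264.7 is a mouse macrophage-like line. One set of Raw264.7 lines was Zmynd8 KO with WT Zmynd8 added back, Zmynd8 KO with the D/E-A mutant, in which acidic residues are alanines, and Zmynd8 KO alone. These labels give no treatment, and the study describes LPS for the first pair. The other set was p65 KO with WT p65, p65 KO with K122R, in which a lysine of p65 is an arginine, and p65 KO alone, all given LPS at a dose and time not given in the sources used here. The column used for WT p65 is headed as WT with LPS and names no p65 KO. Every condition and line was 1 library, so no difference between 2 libraries has a replicate check, and the exact binomial tests on reads compare 2 libraries, not 2 conditions.

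BMDM libraries held 22597425 to 28386646 counts and Raw264.7 libraries 15127110 to 21042628 reads. Zmynd8 itself lay between 79.0 and 151 CPM (counts scaled by the library total) in the BMDM libraries. It was 87.1 in WT NT and 81.5 in the library labelled cKO NT. The treated pairs had the reverse order. The cKO LPS library held 86.8 CPM against 79.0 in WT LPS, and cKO IL-4 held 151 against 128 in WT IL-4. Since these counts cover the whole gene, they are no check of the deletion. In the Zmynd8 lines, the deposited Zmynd8 value was 506 in WT Zmynd8 and 116 in Zmynd8 KO, and the latter is not a whole number of reads. Rela, which encodes p65, stood at 102 RPM (the same scaling, of reads recovered from the Raw264.7 values) in WT p65, 351 in K122R and 50.6 in p65 KO. Macrophage markers (Adgre1, Csf1r, Cd68, Mertk, Fcgr1, Itgam, Lyz2) were above 3 counts in every BMDM library and summed to 9404 to 18385 CPM. Lyz2, whose locus carries Cre in cKO mice, was 7202 CPM in cKO NT against 10950 in WT NT. The 4 LPS response markers summed to 10410 and 10661 CPM in the LPS libraries and to at most 148 in the other BMDM libraries, and the 4 IL-4 response markers to 1878 and 1998 CPM in the IL-4 libraries and at most 34.5 in the NT and LPS libraries. In Raw264.7 the latter 4 summed to 728 to 1118 RPM in the Zmynd8 lines, where Retnla was not listed, and to at most 1.15 in the p65 lines, while the LPS response markers summed to 4515 to 7909 RPM in the Zmynd8 lines and 3588 to 4433 in the p65 lines. Neutrophil markers summed to 357 and 483 CPM in the IL-4 libraries but to 2.3 to 4.2 CPM in the NT and LPS libraries. The Zmynd8 lines stood apart from the p65 lines. They held 4349 to 10249 RPM of neutrophil markers, 80.4 to 109 of B cell markers and 338 to 460 of Xist, against at most 0.32, 0.26 and 0.20 in the p65 lines. Of the macrophage markers, Mertk was at most 0.26 RPM in the p65 lines and 51.3 to 100 in the Zmynd8 lines. Resident macrophage markers summed to 54.1 to 298 CPM in BMDMs, with Clec4f at 0 in all 6 libraries. Dendritic cell markers summed to at most 9.0 CPM in BMDMs and to 20.2 to 37.4 RPM in Raw264.7 libraries. In bulk libraries, fewer cells of a type and less RNA per cell cannot be told apart.

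**Figure D1:**
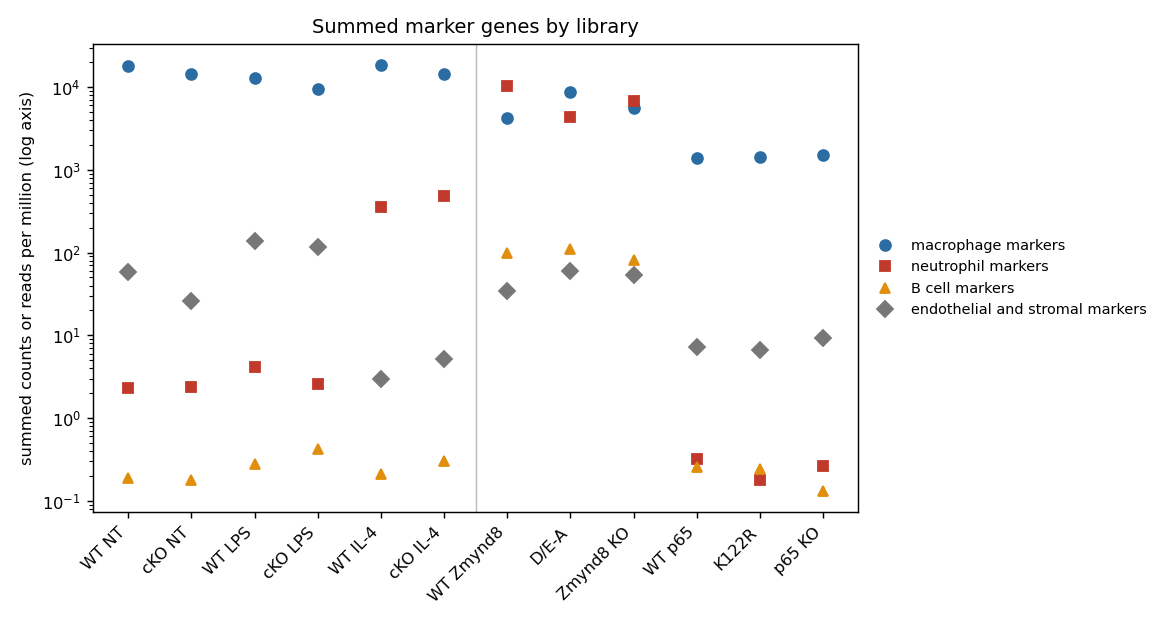
Summed marker genes in each of the 12 libraries, in CPM or RPM on a log axis, with BMDM libraries left of the line and Raw264.7 libraries right of it. Each point is 1 library. Neutrophil markers lie at 4349 to 10249 RPM in the 3 Zmynd8 lines, at 357 and 483 in the IL-4 BMDM libraries and at most 4.2 in the other 7 libraries.

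Promoter windows of 300 bases, 250 before and 50 from the start site on, were at hand for 5 of the 7 genes in the RefSeq annotation (GRCm38.p6). They are shown for Marco and Cd5l, which were lowest after IL-4, and for Cd36 and Stab1, which were lower after LPS. Msr1 and Colec12, which also changed, had no window at hand. Windows run 5′ to 3′ on the strand of the gene: chr1:120504975-120505274 minus strand for Marco, chr3:87357631-87357930 plus strand for Cd5l, chr14:31168592-31168891 minus strand for Stab1 and chr5:17835847-17836146 minus strand for Cd36. Capitals mark matches to the PU.1 core GAGGAA in Marco, Stab1 and Cd5l (on the opposite strand in Cd5l) and to the nuclear receptor half-site AGGTCA, on the opposite strand, in Cd36.
Marco: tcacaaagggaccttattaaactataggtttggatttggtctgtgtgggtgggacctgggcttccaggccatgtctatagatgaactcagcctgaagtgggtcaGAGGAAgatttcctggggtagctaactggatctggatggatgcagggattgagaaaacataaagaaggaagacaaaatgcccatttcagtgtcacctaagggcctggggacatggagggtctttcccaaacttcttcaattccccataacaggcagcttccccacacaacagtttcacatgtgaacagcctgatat
Cd5l: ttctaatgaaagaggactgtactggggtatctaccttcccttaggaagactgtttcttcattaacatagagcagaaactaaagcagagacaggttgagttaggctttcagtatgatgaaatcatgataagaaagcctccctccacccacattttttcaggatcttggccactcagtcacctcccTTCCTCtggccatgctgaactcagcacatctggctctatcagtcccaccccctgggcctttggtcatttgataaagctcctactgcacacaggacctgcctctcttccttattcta
Stab1: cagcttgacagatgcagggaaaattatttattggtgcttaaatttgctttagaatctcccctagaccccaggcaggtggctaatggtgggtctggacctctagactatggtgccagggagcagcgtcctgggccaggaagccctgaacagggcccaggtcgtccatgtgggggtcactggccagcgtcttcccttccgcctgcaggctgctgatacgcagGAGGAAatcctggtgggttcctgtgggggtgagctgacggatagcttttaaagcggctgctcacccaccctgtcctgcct
Cd36: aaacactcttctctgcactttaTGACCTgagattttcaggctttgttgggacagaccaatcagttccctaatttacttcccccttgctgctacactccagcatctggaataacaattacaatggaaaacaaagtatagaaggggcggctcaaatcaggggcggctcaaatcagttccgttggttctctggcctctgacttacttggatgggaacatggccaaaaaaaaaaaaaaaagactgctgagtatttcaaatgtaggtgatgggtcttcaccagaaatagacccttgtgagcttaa
PU.1 is the lineage factor of macrophages, and its core starts 146 bases before the start site in Marco, 66 in Cd5l and 30 in Stab1. A match to it is common, in 28.3% of 32851 windows, and one to AGGTCA in 16.3%. The Cd36 window belongs to a start 52905 bases inside the gene as GENCODE draws it. Searched on both strands, none of AP-1 (TGANTCA, in 7.81% of windows), C/EBP (TTGCNNAA, 10.8%), the interferon-stimulated element (3.44%), the MAF core (TGCTGAC, 4.67%) and the NF-κB site (8.46%) matched any of the 5 windows, and the Cd163 window held no match.

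Of the class A receptors, Marco had the widest range in BMDMs. It was 109 CPM in WT NT, 400 in WT LPS and 2.36 in WT IL-4, and 36.0, 382 and 4.40 CPM in the same order in cKO. Marco was thus high in both LPS libraries, low in both IL-4 libraries and, among NT libraries, higher in WT. Msr1 was 835, 578 and 256 CPM in WT and 721, 727 and 390 in cKO. It was present at 256 CPM or more in every BMDM library and lowest after IL-4. Colec12 was 59.1, 8.35 and 27.3 CPM in WT and 43.0, 7.55 and 38.2 in cKO, with the LPS libraries below the others in both genotypes. Cd36 was the most abundant member by CPM in NT, at 2494 CPM in WT and 2266 in cKO. It stood at 259 and 415 CPM after LPS and 1425 and 1546 after IL-4, in the order WT and cKO. Stab1 was 1079, 257 and 1266 CPM in WT and 983, 319 and 1086 in cKO, low in the LPS libraries alone. Cd5l was 339, 162 and 27.8 CPM in WT and 382, 172 and 54.8 in cKO, highest in NT and lowest after IL-4 in both genotypes. Cd163 was near the limit of detection, with 29, 2 and 11 counts in WT and 21, 0 and 3 counts in cKO. A count of 0 in cKO LPS allows up to 0.128 CPM (3 counts), which covers counting error only.

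**Figure D2:**
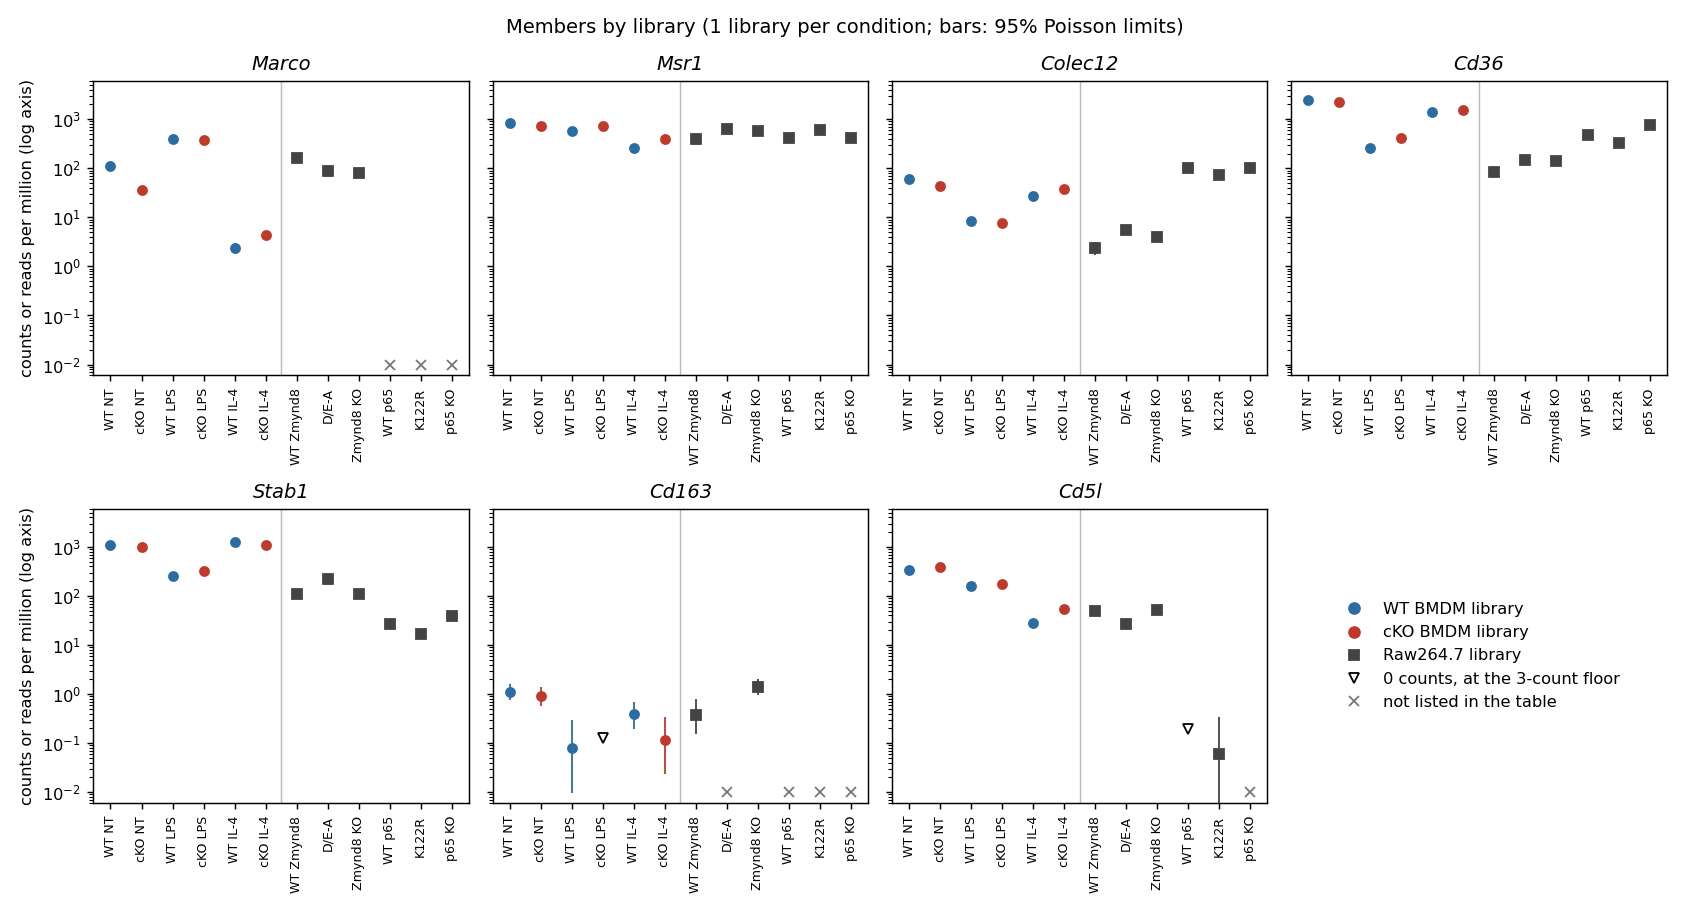
Level of each of the 7 genes in each of the 12 libraries, in CPM or RPM on a log axis, with 95% Poisson limits that cover counting error only and are often smaller than the points. Marco ranges from 2.36 to 400 CPM over the BMDM libraries, while Msr1 stays between 256 and 835 CPM there.

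Levels of different genes were compared per transcript length, in the deposited TPM. In WT NT the order was Cd36 (1362 TPM), Msr1 (452), Stab1 (435), Cd5l (266), Marco (92.99), Colec12 (26.8) and Cd163 (0.40), and in cKO NT Stab1 (427 TPM) stood above Msr1 (294). After LPS, Msr1 (380 TPM in WT, 507 in cKO) and Marco (341 and 344 TPM) led, ahead of Cd36 (138 and 233), Stab1 (130 and 139) and Cd5l (121 and 136). After IL-4, Cd36 (796 and 851 TPM), Stab1 (484 and 411) and Msr1 (166 and 244) led, and Marco (2.01 and 6.54 TPM) fell below Cd5l (22.0 and 42.6) and Colec12 (12.6 and 17.3). With 1 library per condition, no spread says which neighbours in these orders differ. Cd36 was above 99.4% of the genes with TPM above 0 in WT NT and Cd163 above 26.0%. Together the 7 genes took 0.492% of the counts in WT NT and 0.443% in cKO NT, 0.166% in WT LPS and 0.202% in cKO LPS, and 0.300% in WT IL-4 and 0.312% in cKO IL-4.

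The 7 genes lie on different chromosomes. In mm10 coordinates of the GENCODE annotation, Marco (ENSMUSG00000026390) spans chr1:120474538-120505024, Msr1 (ENSMUSG00000025044) chr8:39581685-39642673, Colec12 (ENSMUSG00000036103) chr18:9707595-9882644, Cd36 (ENSMUSG00000002944) chr5:17781690-17888801, Stab1 (ENSMUSG00000042286) chr14:31139013-31168641, Cd163 (ENSMUSG00000008845) chr6:124304656-124330527 and Cd5l (ENSMUSG00000015854) chr3:87357881-87371073. Stab1 overlaps Nt5dc2 on the opposite strand, and as the strand setting of the counting was not given in the sources used here, reads of the overlap cannot be assigned to one of them. Short pseudogenes and small RNAs lie within the span of Colec12, and no annotated gene overlaps the other 5.

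After LPS, Marco was higher and most other members were lower. Between WT LPS and WT NT, Marco was called higher and the other 6 lower, and between cKO LPS and cKO NT, Marco was called higher, Msr1 was not called and the other 5 were lower. Calls needed a 1.2-fold difference on CPM plus 1 and an adjusted p under 0.05 in the exact binomial test. This rule called 20.7% of all tested genes higher and 61.3% lower in WT, and 23.9% and 59.0% in cKO, so calls of lower were common. Scaling bears on this comparison: the median log2 fold change over all tested genes was -0.58 in WT and -0.55 in cKO on library totals, and median ratio scaling would add 0.61 and 0.57 to every value. Under that scaling 34.9% of genes were called higher and 40.3% lower in WT, and 37.1% and 40.5% in cKO. The median of the 7 members was -1.06 in WT and -1.15 in cKO, both the values of Cd5l on CPM plus 1. It depends on Cd163, whose few counts the added 1 damps: -0.96 in WT, against a ratio of -3.78 without it.

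Marco rose 3.65-fold in WT (log2 1.87 on CPM plus 1, with 95% limits of 1.82 to 1.94 that, here and later, are of the ratio without the added 1) and 10.4-fold in cKO (log2 3.37, limits 3.31 to 3.51). Only 4.68% of tested genes in WT and 2.14% in cKO lay as high as Marco. Cd36 fell by 3.26 on the log2 scale in WT (limits -3.30 to -3.23) and by 2.45 in cKO (-2.48 to -2.42), with 1.29% and 4.98% of genes as low. Colec12 (-2.68 in WT, -2.36 in cKO) and Stab1 (-2.07 and -1.62) also fell. Relative to the median of all genes these were still decreases, by 2.68 for Cd36, 2.10 for Colec12 and 1.49 for Stab1 in WT. Cd5l fell by 1.06 in WT and 1.15 in cKO, of which 0.48 and 0.60 remained relative to the median gene. For Msr1 the scaling decides the direction: its log2 fold change was -0.53 in WT, called lower, but 0.05 relative to the median gene and 0.08 under median ratio scaling, where it was not called. In cKO it was 0.01 on library totals (adjusted p = 0.47, exact binomial test), and 0.59 and called higher under median ratio scaling. Cd163 went from 29 to 2 counts in WT, a log2 ratio of -3.78 with limits of -6.90 to -1.80, and from 21 to 0 counts in cKO, at least 7.26-fold lower against the floor of 3 counts. That bound takes the 21 counts as exact, and with the counting error of both libraries the upper 95% limit of the log2 ratio was -2.43.

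On CPM plus 1, the log2 responses to LPS, as cKO minus WT, differed by 1.504 for Marco, whose NT level was lower in cKO. They differed by 0.81 for Cd36, 0.54 for Msr1, 0.45 for Stab1, 0.32 for Colec12 and -0.09 for Cd5l. For Cd163 the value was 0.015, from few counts, whose changes the added 1 damps. These differences were not tested, since a fit with an interaction leaves no residual spread with 1 library each.

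**Figure D3:**
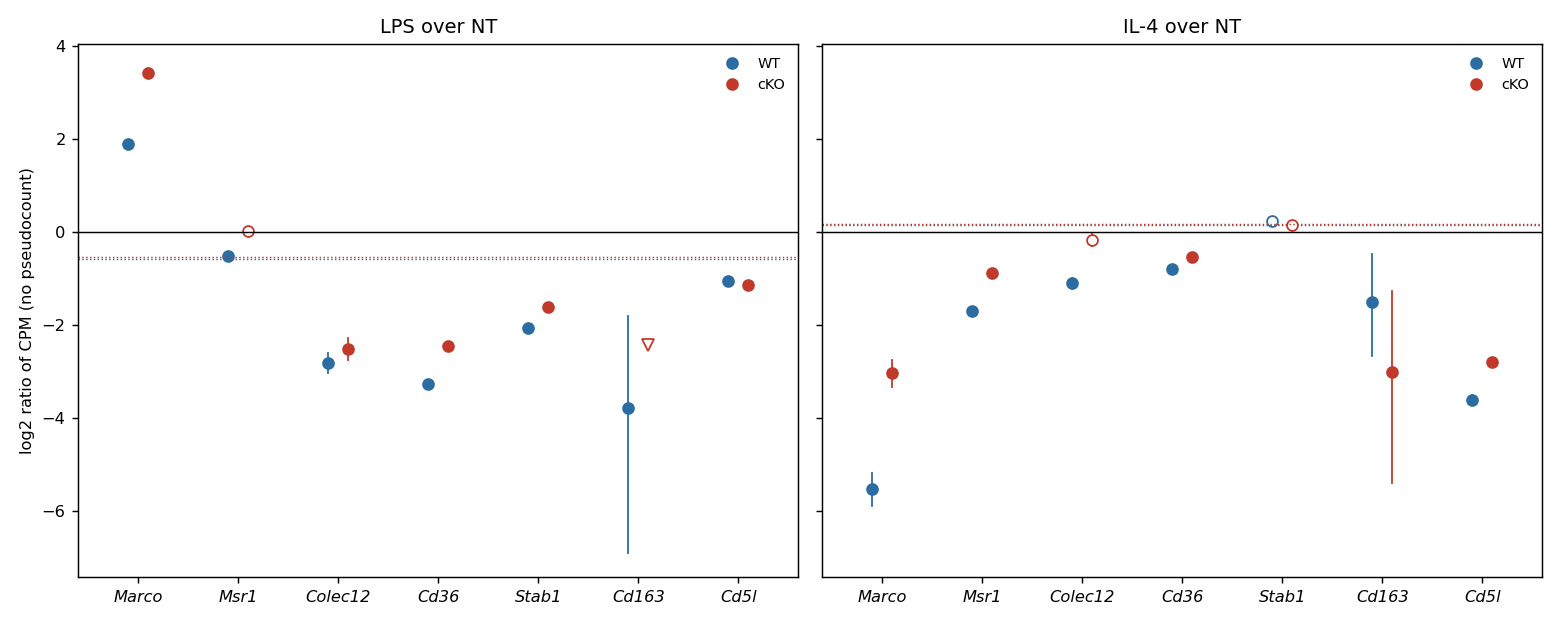
Log2 ratio of CPM, with no pseudocount, of LPS over NT (left) and IL-4 over NT (right) for each gene, in WT and cKO BMDMs. Points are single comparisons of 2 libraries, vertical lines are 95% Clopper-Pearson limits, filled points were called, the triangle is an upper limit for Cd163 at 0 counts, and dotted lines are the medians of all tested genes (-0.58 and -0.55 for LPS, 0.15 and 0.17 for IL-4). Marco lies far above the others after LPS. After IL-4 it is lowest in WT, and in cKO it is level with Cd163 (-3.03 and -3.02, the latter with limits of -5.41 to -1.27).

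The same LPS comparisons were read for related genes. Of 18 other scavenger receptors, 12 were tested in WT, 3 called higher and 8 lower (median log2 fold change -1.18), led by the mannose receptor Mrc1 (-3.24), the hyaluronan receptor Cd44 (-2.53) and Cxcl16 (2.25), a chemokine that also binds oxidised lipoprotein. In cKO 11 were tested, 3 higher and 7 lower (median -1.28), led by the HDL receptor Scarb1 (-2.76), Cxcl16 (2.63) and Mrc1 (-2.42). Among 10 other SRCR proteins, 5 were tested in WT with 3 higher and 2 lower (median 0.48), and 6 in cKO with 3 higher and 2 lower (median 0.42). Ssc5d (1.35 in WT, 2.29 in cKO) and Lgals3bp (0.90 and 1.39), a secreted glycoprotein, were higher, and Cd5 went from 30 to 3 counts in WT and from 72 to 4 in cKO. Of 16 genes of lipid uptake and storage around Cd36, 6 were higher and 9 lower in WT (median -0.47), and 9 higher and 7 lower in cKO (median 0.34). The largest changes were in Pparg (-3.87 in WT, -4.04 in cKO), a nuclear receptor with Cd36 among its targets, the lipoprotein lipase gene Lpl (-3.81 and -2.96) and the acyl-CoA synthetase gene Acsl1 (2.88 and 3.63). Of 8 genes of haem handling, 7 were tested in WT with 3 higher and 4 lower (median -1.11), and 8 in cKO with 2 higher and 4 lower (median -0.58). The iron exporter Slc40a1 (-3.29 in WT, -3.15 in cKO) and the biliverdin reductase Blvra (-1.36 and -1.89) were lower in both, Hmox1, the haem oxygenase, was among the leading genes in WT (2.01), and the haem transporter Slc48a1 in cKO (-1.65).

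After IL-4, Marco and Cd5l were lower in both genotypes. The IL-4 libraries were tabulated apart, and the sample numbers in their titles lie apart from those of the NT and LPS libraries. IL-4 and any such difference in handling cannot be told apart, here and in the additive fit below. Between WT IL-4 and WT NT, 6 members were called lower, none higher, and Stab1 was not called. Between cKO IL-4 and cKO NT, 5 were lower, none higher, and Stab1 and Colec12 were not called. All tested genes were called higher in 38.8% and lower in 21.8% of cases in WT, and in 42.4% and 24.9% in cKO. Median ratio scaling would subtract 0.17 in WT and 0.20 in cKO and gave 29.1% higher and 29.6% lower in WT, and 34.0% and 33.6% in cKO. The median of the 7 members was -1.08 in WT and -0.79 in cKO, beside 0.15 and 0.17 over all tested genes. The cKO median is the value of Cd163 on CPM plus 1, from 21 and 3 counts, whose change the added 1 damps.

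Marco went from 2850 to 67 counts in WT, a log2 ratio of -5.53 (limits -5.90 to -5.18), or -5.03 with the pseudocount, which damps changes of low genes. In cKO it went from 813 to 115 counts, a ratio of -3.03 (-3.33 to -2.75). Only 0.0306% of tested genes in WT and 0.447% in cKO were as low as Marco. Cd5l fell by 3.56 on the log2 scale in WT, which 0.168% of genes matched, and by 2.78 in cKO, which 0.440% matched. Msr1 fell in both (-1.70 in WT, limits -1.74 to -1.67, and -0.89 in cKO, limits -0.92 to -0.85). Cd36 fell by 0.81 and 0.55. Colec12 fell by 1.08 in WT, whereas in cKO its value of -0.17 (limits -0.30 to -0.04, adjusted p = 0.013 in the exact binomial test) was below the fold of 1.2, though called lower under median ratio scaling (-0.36). Stab1 was 0.23 in WT and 0.14 in cKO, below the fold in both, and turned to -0.05 in cKO under median ratio scaling. Cd163 had 29 and 11 counts in WT (ratio -1.51, limits -2.66 to -0.47) and 21 and 3 in cKO (-3.02, limits -5.41 to -1.27).

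On CPM plus 1, the log2 responses to IL-4, as cKO minus WT, differed by 2.25 for Marco, 0.92 for Colec12, 0.82 for Msr1 and 0.79 for Cd5l. They differed by 0.26 for Cd36, -0.09 for Stab1 and -0.19 for Cd163 with its few counts. The added 1 damps the values of Cd163 and Marco, whose ratios without it are given above. These differences were not tested either. The NT libraries are the shared controls of the LPS and IL-4 comparisons. The IL-4 libraries held the neutrophil markers given above, and the part of those in these values was not tested.

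Among the other scavenger receptors, IL-4 gave 7 higher and 4 lower of 12 tested in WT (median 0.48) and 7 higher and 3 lower of 11 in cKO (median 0.78). The lectin-like oxidised lipoprotein receptor Olr1 went from 4 to 3149 counts in WT (log2 6.60) and from 5 to 2862 in cKO (6.50), the beta-glucan receptor Clec7a rose by 3.53 and 3.27, and Cxcl16 by 2.93 and 3.09. The SRCR proteins gave 1 higher and 2 lower of 5 tested in WT (median -0.18) and 1 higher and 3 lower of 5 in cKO (median -0.42), led by Loxl3 (-0.94 in WT, -0.66 in cKO), Cd5 (0.45 and -0.96), Ssc4d in WT (-0.45) and Lgals3bp in cKO (0.78). Of the lipid genes 8 were higher and 5 lower in WT (median 0.28), and 10 higher and 5 lower in cKO (median 0.66). The fatty acid binding proteins Fabp5 (-4.38 in WT, -3.63 in cKO) and Fabp4 (-3.81 and -2.71) led, followed by the kinase gene Fyn in WT (2.78) and Acsl1 in cKO (2.63). Of the haem genes, 5 of 7 tested were lower in WT (median -1.01) and 6 of 8 in cKO (median -1.07), with none higher. Slc40a1 was lowest (-4.08 and -4.25), then Hmox1 (-1.07) and Blvra (-1.06) in WT, and Blvrb (-1.29) and Blvra (-1.25) in cKO.

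The comparison of Zmynd8 cKO with WT BMDMs gave calls that depended on the condition. In NT, Marco and Colec12 were called lower in cKO and none of the 7 higher, where 21.9% of all tested genes were called higher and 26.1% lower. After LPS, Cd36, Msr1 and Stab1 were called higher and none of the 6 tested lower, where 17.3% of genes were higher and 8.90% lower (13.7% and 12.3% under median ratio scaling). After IL-4, Cd5l, Marco, Msr1 and Colec12 were called higher and none of the 6 tested lower, where 14.0% were higher and 10.6% lower. Cd163, with at most 11 counts, was below the filter of 10 counts on average after LPS and IL-4. The members had medians of -0.14 (NT), 0.20 (LPS) and 0.54 (IL-4), beside -0.01, 0.03 and 0.01 over all tested genes. With an exact test in edgeR that assumes a biological coefficient of variation of 0.2, Marco in NT was the only member still called in these 3 comparisons, where the shares of all genes called higher and lower were 0.650% and 1.54% for NT, 0.178% and 0.121% for LPS and 0.944% and 0.264% for IL-4.

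Marco had 2850 counts in WT NT and 813 in cKO NT, 2.97-fold lower (log2 -1.57, limits of the ratio -1.71 to -1.48), which 0.754% of tested genes matched. After LPS the 2 libraries were within 1.05-fold, at 9963 and 8955 counts (log2 -0.066, limits -0.107 to -0.025). After IL-4 the counts were 67 and 115, a log2 fold change of 0.68 on CPM plus 1, a log2 ratio of 0.90 without the added 1 (limits 0.45 to 1.36), and 1.32 on TPM plus 1, so Marco was lower in cKO in NT and higher in cKO after IL-4. Colec12 had the same order of signs, at -0.45 in NT (limits -0.57 to -0.34) and 0.47 after IL-4 (0.35 to 0.62), with -0.13 after LPS (208 and 177 counts, adjusted p = 0.47, exact binomial test). Msr1 was -0.21 in NT, below the fold, 0.33 after LPS (0.30 to 0.36) and 0.60 after IL-4 (0.56 to 0.65). In deposited TPM, Msr1 was 452 in WT NT and 294 in cKO NT, a log2 fold change of -0.62 on TPM plus 1, and Cd36 was -0.38 there, past the fold, where 12.5% of all genes were past the fold upwards and 44.1% downwards, so these NT values depend on the unit, as do the shares over all genes. The 4 LPS response markers had the same direction as Marco between genotypes in NT (35.9 CPM in WT, 14.3 in cKO) and after IL-4 (36.8 and 148), but not after LPS, where they summed to 10410 in WT and 10661 in cKO. Lyz2 was lower in cKO in each condition, and the other 6 macrophage markers moved in both directions. In NT, Mertk (98.8 CPM in WT, 40.4 in cKO), Fcgr1 (788 and 448), Itgam (862 and 525), Adgre1 (1072 and 872) and Csf1r (1731 and 1666) were lower in cKO and Cd68 (2555 and 3466) was higher. Adgre1 and Itgam were the ones of these 6 higher in cKO after LPS, and Adgre1, Cd68 and Fcgr1 after IL-4. Xist, which is transcribed from the inactive X chromosome of female cells, was 740 CPM in WT and 323 in cKO (NT), 246 and 429 (LPS), and 1108 and 1057 (IL-4). Neutrophil markers summed, in the same order, to 2.33 and 2.35 CPM (NT), 4.18 and 2.56 (LPS), and 357 and 483 (IL-4). The part of these in the member values was not tested.

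After LPS, Cd36 was higher in cKO than in WT by 0.68 on the log2 scale, which 2.71% of genes matched. It had 6459 counts in WT LPS and 9719 in cKO LPS (limits 0.63 to 0.72). Between genotypes it was -0.14 in NT and 0.12 after IL-4. Stab1 was 0.31 after LPS (0.26 to 0.36), but 0.26 under median ratio scaling and 0.09 on TPM plus 1, neither of which was called. In NT it was -0.13 and after IL-4 -0.22, both below the fold. Cd5l was 1.94-fold higher in cKO IL-4 than in WT IL-4, with 1432 against 788 counts (log2 0.96, limits 0.85 to 1.11), which 1.70% of genes matched. It was 0.17 in NT and 0.080 after LPS (adjusted p = 0.033, exact binomial test), both below the fold. Cd163 had 29 and 21 counts in NT (limits -1.14 to 0.61, adjusted p = 0.65, exact binomial test), 2 in WT LPS against 0 in cKO LPS, and 11 in WT IL-4 against 3 in cKO IL-4 (limits -4.24 to 0.17), so no difference was detectable at this depth.

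An additive fit of genotype and condition over the 6 BMDM libraries, chosen after seeing the data, treats the 2 genotypes as repeats of a treatment response and the 3 conditions as repeats of the genotype effect, and leaves 2 residual degrees of freedom. Responses that differ between genotypes enter its residual spread. In edgeR's quasi-likelihood test on library totals, with Benjamini-Hochberg adjustment over 13075 genes and the same fold of 1.2, Marco was higher after LPS (log2 2.51, adjusted p = 0.00836), and Cd36 (-2.85), Colec12 (-2.68), Stab1 (-1.84), Cd163 (-4.59) and Cd5l (-1.10) were lower, where 14.7% of genes were called higher and 47.7% lower. On library totals that was 1922 genes higher and 6242 lower, against 3102 and 3544 with TMM scaling, under which Cd5l lost its call (-0.51, adjusted p = 0.145 in edgeR). After IL-4, Marco (-4.31, adjusted p = 0.00646 in edgeR), Cd5l (-3.18) and Msr1 (-1.30) were lower and no member higher, where 13.5% of genes were called higher and 7.56% lower (1764 and 988 genes, against 1355 and 1338 with TMM scaling). Cd163 (-2.12), Cd36 (-0.69) and Colec12 (-0.63) were not called, with adjusted p from 0.0959 to 0.127 in edgeR. Between cKO and WT, no member was called, nor was any of the 13075 genes (0% in each direction), with 408 genes at an unadjusted p under 0.05 and 396 with TMM scaling. The members ranged there from -0.95 (Cd163) to 0.41 (Cd5l, unadjusted p = 0.116 in edgeR).

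**Figure D4:**
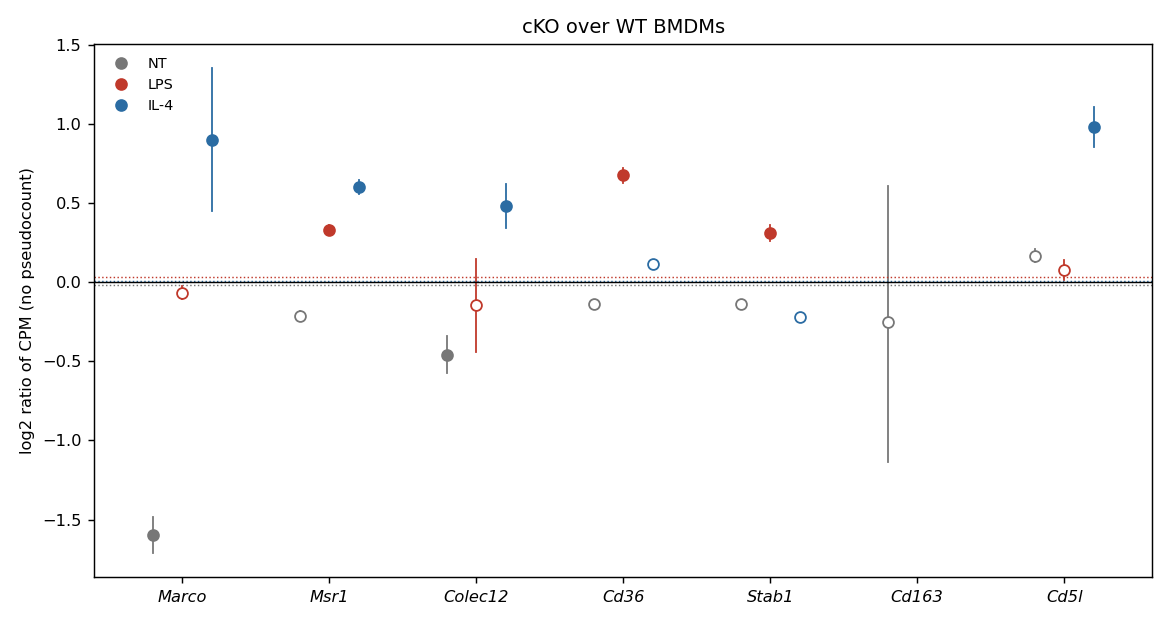
Log2 ratio of CPM, with no pseudocount, of cKO over WT BMDMs for each gene in NT, after LPS and after IL-4. Points are single comparisons of 2 libraries, lines are 95% Clopper-Pearson limits, filled points were called, and dotted lines are the medians of all tested genes. Marco is lowest in NT, Cd36 highest after LPS, and 4 genes are called higher after IL-4.

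Among related genes in NT, 2 of 10 tested scavenger receptors were higher in cKO and 5 lower (median -0.26), led by Mrc1 (-0.66), Lrp1 (-0.65), a receptor for many protein ligands, and Scarf1 (-0.55). Of the SRCR proteins 3 were higher and 2 lower (median 0.44), led by Cd5 (0.96, 30 and 72 counts), Lgals3bp (-0.71) and Ssc5d (-0.68). The lipid genes were 1 higher and 9 lower of 15 tested (median -0.31), led by the cholesterol exporters Abca1 (-1.58) and Abcg1 (-0.92) and by Fabp4 (-0.75). Haem genes were 3 higher and 0 lower of 7 (median 0.25), namely Slc48a1 (0.59), Blvrb (0.53) and the ferritin chain Fth1 (0.31). After LPS, 4 scavenger receptors were higher and 1 lower of 11 (median 0.16), led by Olr1 (0.82, 24 and 58 counts), Stab2 (0.61, 18 and 38 counts) and Cd44 (0.49). No SRCR protein of 5 was called by the exact binomial test (median 0.11). Lipid genes were 4 higher and 5 lower of 16 (median -0.04), led by Lpl (0.81), Dgat2 (-0.69) and Fabp5 (-0.68), and haem genes 0 higher and 2 lower of 8 (median 0.01), Hmox1 (-0.34) and Blvra (-0.28). After IL-4, scavenger receptors were 1 higher and 6 lower of 12 (median -0.24), led by Stab2 (0.82, 16 and 46 counts), Clec7a (-0.56) and Lrp1 (-0.56). SRCR proteins were 2 higher of 5 (median -0.06), Loxl3 (0.76) and Ssc4d (0.46). Lipid genes were 6 higher and 5 lower of 16 (median 0.02), led by the triglyceride synthesis gene Dgat2 (0.81), Pparg (-0.74) and Abcg1 (-0.49), and haem genes 2 higher of 8 (median 0.07), the haem-binding Hpx (0.46, 8 and 20 counts) and Fth1 (0.35). 

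The genes whose pattern was most like each member were sought over the 6 BMDM libraries, by the root mean square difference of centred log2(CPM + 1) among 13075 genes averaging 10 counts or more. For Marco they were Kdr (0.67), which encodes a VEGF receptor, Fcgr4 (0.70), an Fc receptor gene, and Thbs1 (0.90), which encodes a matrix protein. Kdr went from 55.9 CPM in WT NT to 132 after LPS and 2.08 after IL-4, and was 24.6 CPM in cKO NT. Kdr made up most of the 6 endothelial and stromal markers, which summed to 58.6, 136 and 2.92 CPM in WT (NT, LPS, IL-4) and 26.0, 118 and 5.24 in cKO, in the order Marco took. As Kdr was the gene most like Marco, the order of a sum made mostly of Kdr is no separate observation. Tek was at 0 in 5 of the 6 libraries, Cdh5 was at most 4.14 CPM, and Col1a1, Col3a1 and Pdgfra were at most 0.60. The part of such cells in the Marco values was not tested. Cd5l was most like Clec4n (0.25), Gm42517 (0.27) and Gpnmb (0.28), and Gpnmb, a lysosomal glycoprotein gene, fell in level from 22290 CPM in WT NT to 14570 after LPS and 2299 after IL-4. Cd36 was most like Eef2k (0.10), Eif3j1 (0.12) and Dgkd (0.12), Stab1 most like Ikbkap (0.073), Zfp715 (0.073) and Mblac2 (0.074), and Colec12 most like Galnt4 (0.094), Idi1 (0.17) and Ipo5 (0.18). Msr1 was most like 4930503L19Rik (0.13), Pdk1 (0.18) and Gm21975 (0.19), and Cd163, at its low counts, most like Gabbr2 (0.050), Rufy1 (0.076) and Rell1 (0.085). The added 1 damps changes of low genes, so such matches need not share a ratio. From WT NT to WT LPS, Cd163 went from 1.11 to 0.080 CPM but Rufy1 from 61.1 to 35.1. Mblac2 went from 5.99 to 0.64 CPM there and Stab1 from 1079 to 257. Within the 7, the closest pair was Colec12 and Cd36 (0.31), then Colec12 and Stab1 (0.44) and Cd36 and Stab1 (0.47), while Marco differed from every other member by at least 2.02.

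In the Raw264.7 libraries, the members divided by line. Marco stood at 160, 89.3 and 80.6 RPM in WT Zmynd8, D/E-A and Zmynd8 KO and was not listed in the p65 lines. Cd5l was 50.2, 26.9 and 52.7 RPM in the same lines, 0 reads in WT p65, 1 read in K122R and not listed in p65 KO. Colec12 was the reverse, at 2.39, 5.58 and 3.94 RPM in the Zmynd8 lines and 104, 73.1 and 102 in WT p65, K122R and p65 KO. Cd36 was 84.9, 149 and 141 in the Zmynd8 lines and 484, 320 and 754 in the p65 lines, Stab1 111, 224 and 110 against 27.1, 16.7 and 39.1, and Msr1 396, 644 and 576 against 405, 595 and 418. So Stab1 was higher in all 3 Zmynd8 lines and Colec12 and Cd36 in all 3 p65 lines, while Msr1 overlapped. Cd5l was higher in the Zmynd8 lines than in WT p65 and K122R. For Marco in the p65 lines and Cd5l in p65 KO, a missing entry gives no value to compare. Cd163 had 7 reads in WT Zmynd8, 30 in Zmynd8 KO and no entry elsewhere. Set against the markers above, Marco and Cd5l were present in the lines that also held neutrophil and B cell genes and Xist, and whether these libraries are of the labelled cell line alone was not tested.

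Fold changes in Raw264.7 were taken within a table on the deposited value plus 1, and called at a fold of at least 1.2 alone. The interval of a fold covers counting error only. Between D/E-A and WT Zmynd8, 4 members were higher and 2 lower, where 36.7% of all genes were higher and 35.9% lower, and the median of the 6 was 0.78 beside 0.02 over all genes. Colec12 was highest (log2 1.23, 44 and 100 reads, limits 0.73 to 1.80), followed by Stab1 (1.04, limits 0.97 to 1.12), Cd36 (0.84, 0.75 to 0.93) and Msr1 (0.73, 0.69 to 0.77). Marco (-0.81, limits -0.90 to -0.73) and Cd5l (-0.87, -1.03 to -0.71) were lower. Cd163 was not listed in that table, whose lowest entry for WT Zmynd8 is 21 reads. In the same 2 libraries, macrophage markers summed to 4289 RPM in WT Zmynd8 and 8682 in D/E-A, neutrophil markers to 10249 and 4349, LPS response markers to 4515 and 7909, and 2 ribosomal RNA entries took 17.1% and 8.17% of the reads. The part of these in the member values was not tested. With the ribosomal entries left out, a choice made after seeing the data, on RPM plus 1, no call changed, with Cd5l at -1.02, Marco at -0.98, Stab1 at 0.86 and Msr1 at 0.55, while 26.5% of all genes were higher and 42.6% lower.

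Between Zmynd8 KO and WT Zmynd8, 4 members were higher, 1 was lower and 2 were not called, where 33.8% of genes were higher and 36.5% lower (19.2% and 30.1% on RPM plus 1 without the ribosomal entries). The median of the members was 0.61, beside -0.03 over all genes. Cd163 was higher with 7 and 30 reads (log2 1.84, limits 0.76 to 3.41), as were Cd36 (0.81), Colec12 (0.78, limits 0.25 to 1.36) and Msr1 (0.61). Marco was lower (-0.92, limits -1.01 to -0.83). Stab1 (0.06, limits -0.03 to 0.14) and Cd5l (0.14, 0.02 to 0.27) were not called. Both comparisons share the WT Zmynd8 library, so their likeness for Marco, Colec12, Cd36 and Msr1 is not independent. In Zmynd8 KO, macrophage markers summed to 5637, neutrophil markers to 6852 and LPS response markers to 6438 RPM, between those of the other pair.

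Between K122R and WT p65, Msr1 was higher (log2 0.70, limits 0.65 to 0.74) and Stab1 (-0.55, -0.78 to -0.33), Cd36 (-0.45, -0.50 to -0.40) and Colec12 (-0.36, -0.47 to -0.25) were lower. Over all genes 30.8% were higher and 32.5% lower. The deposited scaling adds 0.14 to every log2 value relative to library totals. On RPM plus 1, which changes both the scaling and the weight of the added 1, Msr1 was 0.55, Cd36 -0.59 and Colec12 -0.50, with 14.0% of genes higher and 30.6% lower. Between p65 KO and WT p65, Cd36 (0.64, limits 0.60 to 0.68) and Stab1 (0.53, 0.35 to 0.71) were higher, and Msr1 (0.05, -0.005 to 0.10) and Colec12 (-0.03, -0.13 to 0.08) were not called, where 26.3% of genes were higher and 25.7% lower (14.7% and 15.3% on RPM plus 1, with the same number of members called). Cd36 and Stab1 thus lay below WT p65 in K122R and above it in p65 KO, a pattern of single libraries that share the WT p65 control. Macrophage markers summed to 1395 to 1533 RPM in these 3 libraries.

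**Figure D5:**
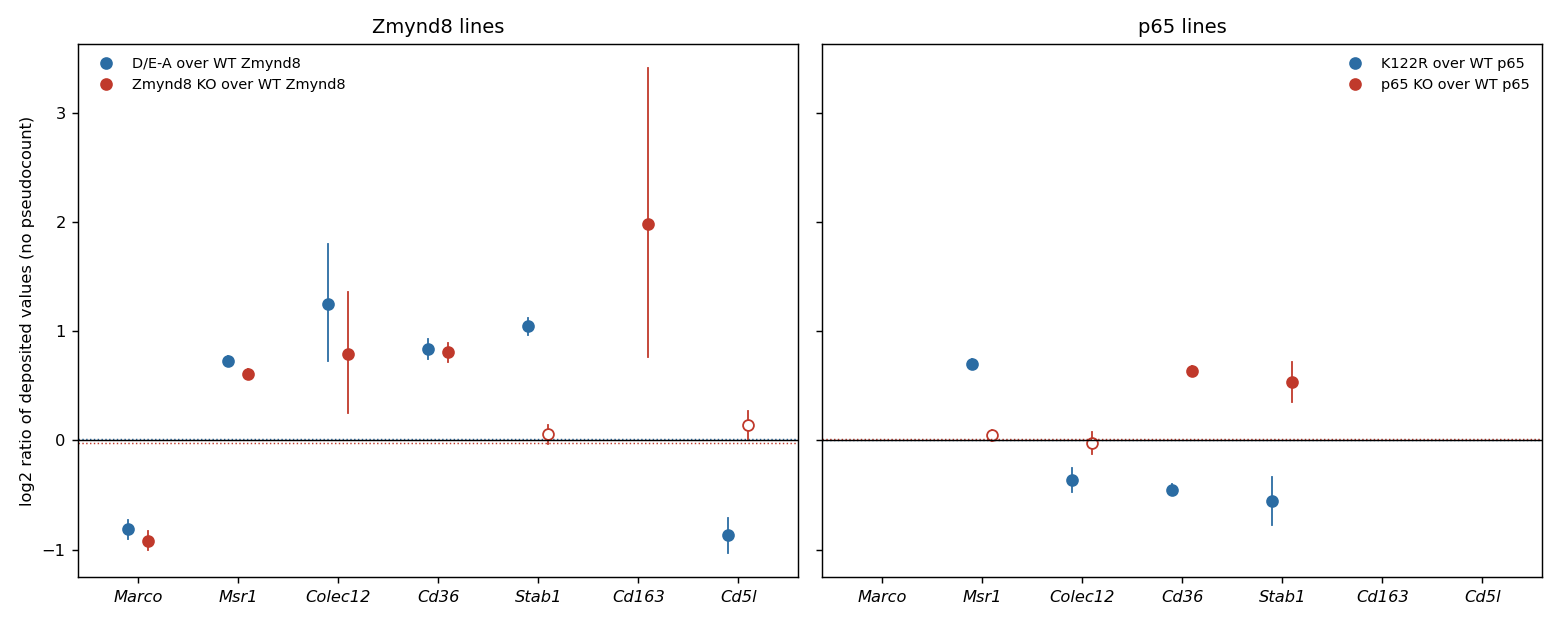
Log2 ratio of deposited values, with no pseudocount, in the Zmynd8 lines (left, over WT Zmynd8) and the p65 lines (right, over WT p65). Points are single comparisons of 2 libraries, lines are 95% Clopper-Pearson limits on the reads, filled points had a fold change of at least 1.2, and dotted lines are the medians of all genes. Marco is lower and Colec12, Cd36 and Msr1 are higher in both comparisons on the left, and Cd36 and Stab1 take opposite signs on the right.

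For the related genes in D/E-A, 6 scavenger receptors were higher and 3 lower of 12 (median 0.24), led by Mrc1 (2.05), Lrp1 (1.30) and Ager (-1.24), a receptor for glycated proteins. SRCR proteins were 1 higher and 4 lower of 6 (median -0.68), led by the lymphocyte receptors Cd5 (-1.64, 25 and 7 reads) and Cd6 (-1.03, 31 and 14 reads) and by Loxl3 (-0.77). Lipid genes were 9 higher and 4 lower of 15 (median 0.39), led by the kinase gene Lyn (1.17), Acsl1 (1.14) and Dgat1 (-1.13), and haem genes 1 higher and 6 lower of 7 (median -0.49), led by Hmox1 (-1.37), Slc48a1 (-0.95) and Slc40a1 (-0.77). In Zmynd8 KO, scavenger receptors were 7 higher and 2 lower of 13 (median 0.28), led by Ager (-1.23), Mrc1 (1.07) and Megf10 (-0.87), an engulfment receptor. SRCR proteins were 2 higher and 4 lower of 9 (median -0.24), led by Cd5 (25 and 4 reads), Loxl4 (3 and 18 reads) and Cd6 (31 and 7 reads). Lipid genes were 5 higher and 3 lower of 15 (median 0.22), led by Pparg (1.10, 33 and 78 reads), Lyn (0.83) and Dgat1 (-0.82), and haem genes 1 higher and 2 lower of 8 (median -0.10), Hmox1 (-1.12), Nfe2l2 (0.59) and Slc48a1 (-0.42). In K122R, scavenger receptors were 7 higher and 2 lower of 14 (median 0.24), led by Olr1 (2.47, 20 and 111 reads), Clec7a (1.16) and Mrc1 (0.94, 6 and 12 reads), and SRCR proteins 4 higher and 2 lower of 8 (median 0.33), led by Loxl4 (0 and 4 reads), Loxl2 (0 and 2 reads) and Ssc5d (0.68). Lipid genes were 8 higher and 2 lower of 15 (median 0.31), led by Pparg (0 and 3 reads), Tlr4 (1.33) and Fyn (0.85), and haem genes 6 higher and 1 lower of 7 (median 0.54), led by Hmox1 (1.54), Fth1 (1.07) and Slc40a1 (-0.61). In p65 KO, scavenger receptors were 6 higher and 4 lower of 14 (median 0.24), led by Stab2 (1 and 4 reads), Clec7a (0.98) and Scara3 (6 and 3 reads), and SRCR proteins 5 higher of 6 (median 0.50), led by Cd5 (1.22, 11 and 26 reads), Ssc4d (0.63) and Loxl3 (0.57). Lipid genes were 5 higher and 2 lower of 15 (median 0.02), led by Pparg (0 and 3 reads), Nr1h3 (0.67) and Tlr4 (0.62), and haem genes 2 higher of 7 (median 0.19), Hmox1 (0.68) and Slc48a1 (0.31).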

How the data were processed

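For BMDMs, poly(A) RNA-seq reads were aligned by the authors with TopHat to the mm10 transcriptome, and estimated counts and TPM per gene were deposited. The test behind their fold changes is Cuffdiff in the Methods and DEGseq in the file names. For Raw264.7 cells, the authors deposited 1 normalized signal value per gene and library, found here to be whole reads divided by a size factor (tolerance 0.05 reads; 100% of the values tested, or 99.9954% in Zmynd8 KO, where 1 value, that of Zmynd8, was not whole). Its aligner is not given in the sources used here. The submitters' processing notes also list CASAVA 1.4 and Bowtie 0.12.2, with no role. Columns of the authors' fold changes and p-values were left aside, as were 2 columns that no label assigns to a sample.

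Estimated counts were rounded. BMDM genes averaging 10 counts or more were tested by a two-sided exact binomial test on library totals, Benjamini-Hochberg adjusted over all genes tested, with log2 fold changes on CPM plus 1. The test was tested on simulated data with counting error alone, which cannot speak to variation between pools. Raw264.7 genes averaging a value of 1 or more were called by fold alone, on the value plus 1, as the design set out for tables without counts. Limits are 95% Clopper-Pearson or Poisson limits and cover counting error only. The members, lists, motifs and markers were chosen with earlier results of these data known. Named genes are the members, the 3 called genes of each list with the largest absolute change per comparison, the 3 genes most like each member, Zmynd8, Rela, Xist and markers. Alternatives were a pseudocount of 0.1, other filters, median ratio (DESeq2 1.42.0) and TMM scaling (edgeR 4.0.16), a fold of 2, TPM, an edgeR exact test with an assumed variation, and RPM or an exact test on the recovered reads. Leaving out the ribosomal entries and the additive fit of genotype and condition were chosen after seeing the data. That fit used edgeR's quasi-likelihood test and was tested on simulated data without an interaction. Python 3.11.15, SciPy 1.17.1 and R 4.3.3 were used. BMDM totals ranged from 22597425 to 28386646 counts. The other 35 samples of the series were not analysed here.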

Additional observations from a re-analysis of the deposited data

Results flagged for a closer look

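The difference between cKO and WT BMDMs had opposite calls in NT and after IL-4 for 2 genes. Marco had a log2 fold change of -1.57 in NT and 0.68 after IL-4, the latter on 67 and 115 counts. Colec12 had -0.45 in NT and 0.47 after IL-4. Each value compares 1 library with 1 library, and the difference between the conditions was not tested.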

How the results depend on the processing

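Each group has 1 library, so no replicate could be left out and no replicate numbers pair the groups. The additive fit over the 6 BMDM libraries called 6 members after LPS (5 with TMM scaling), 3 after IL-4 (3) and 0 between genotypes (0). With a fold of at least 2 in place of 1.2, the members called went from 2 to 1 in cKO over WT in NT, from 3 to 0 after LPS and from 4 to 0 after IL-4, from 5 to 2 in IL-4 over NT of cKO, from 6 to 2 in D/E-A, from 5 to 1 in Zmynd8 KO, from 4 to 0 in K122R and from 2 to 0 in p65 KO. At that fold the shares of all genes higher and lower were, in the same order, 0.971% and 2.86%, 0.573% and 0.331%, 1.56% and 0.408%, 15.0% and 6.09%, 6.94% and 11.4%, 8.29% and 17.35%, 10.5% and 9.46%, and 9.26% and 6.58%. With the edgeR exact test at an assumed coefficient of variation of 0.2, they were 1 in cKO over WT in NT, 0 after LPS, 0 after IL-4 and 3 in IL-4 over NT of cKO, where 0.650% and 1.54%, 0.178% and 0.121%, 0.944% and 0.264%, and 16.7% and 6.72% of all genes were higher and lower. On TPM with the fold rule alone, 4 were called in cKO over WT in NT, with 12.5% of all genes higher and 44.1% lower. On TPM 55.2% were higher and 16.9% lower in IL-4 over NT of cKO. With the exact test on recovered reads, no number of members called in Raw264.7 changed, while the shares of all genes higher and lower were 33.0% and 28.9% in D/E-A, 18.5% and 14.6% in Zmynd8 KO, 13.3% and 13.9% in K122R, and 6.72% and 6.89% in p65 KO. All other alternatives to the comparisons of 2 libraries gave a number of members called within 1.5 times that reported, 79 of 92 in all. For single members, 497 values kept direction and call (BMDM) or stayed within counting error (Raw264.7), 32 lost and 7 gained the call, 16 of Raw264.7 moved further, and 8 of BMDM turned sign. Members of Raw264.7 that were not called also turned sign, Stab1 in Zmynd8 KO on RPM plus 1 (-0.0176, and -0.0734 without the ribosomal entries) and Colec12 in p65 KO with TMM scaling (0.0011). In BMDM, under median ratio and TMM scaling, the turned values were Msr1 in LPS over NT of WT (0.0778 and 0.0524) and Stab1 in IL-4 over NT of cKO (-0.0528 and -0.0832). On TPM they were Cd5l in cKO over WT in NT (-0.0885), Marco in cKO over WT after LPS (0.0149), and Colec12 (0.067) and Stab1 (-0.0554) in IL-4 over NT of cKO. The scalings turned signs by construction, as they add one number to all genes of a comparison. For the other changes the cause was not tested. Counts were low for Cd163 in every library that listed it, for Marco after IL-4 and for Colec12 in the Zmynd8 lines, which widened their limits.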
